A study of Mus musculus with 24 samples.

Results

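The 80 genes described here bear symbols of cytosolic ribosomal proteins, and were measured in tissue from the ventricular zone of the developing mouse cortex. They were chosen by symbol: names of the large-subunit, small-subunit or stalk series (Rpl, Rps, Rplp), together with Rpsa, with a mean of at least 100 normalized reads over the 24 libraries. Of the 22529 rows in the table, 82 matched the symbol pattern. Rpl39l, with a mean of 5.18, fell below the minimum, and 1 further matching row was left out by name. The 80 genes comprised 45 of the 60S subunit, 32 of the 40S subunit and the 3 stalk genes Rplp0, Rplp1 and Rplp2. Rps4l, counted by its name with the 40S genes, is annotated as a transcribed processed pseudogene, and the other members as protein-coding. All 80 passed the filter on low values.

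The libraries formed 8 groups of 3, lettered A, B and C. They came from embryos labelled Prdm16 conditional knockout (cKO) or wild type (WT), both on the C57BL/6 strain, at embryonic day (E) 11.5, 13.5, 15.5 and 17.5. Prdm16 encodes a zinc finger transcription regulator of cortical progenitors. The Cre driver, and whether a library holds 1 embryo or several, are not stated in the labels. The p-values below therefore reflect only how far these libraries differ among themselves, which may in part be technical. RNA was polyA selected, which captures the mRNAs of ribosomal proteins and not the ribosomal RNAs.

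A ribosome consists of a small subunit, which reads the mRNA, and a large subunit, which forms peptide bonds. Its stalk proteins recruit the translation factors. Most ribosomal protein genes are transcribed at high rates in all cells, and their mRNAs begin with a pyrimidine tract, the 5′ TOP element, through which mTOR complex 1 and LARP1 control translation and stability. In the embryonic forebrain, ribosome production is known to be high in early neuroepithelium and to decline as development proceeds.

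The libraries held 25639836 to 38879931 reads in genes. Pax6 and Sox2, markers of ventricular zone progenitors, were present in all libraries, with at least 1919 and 1451 normalized reads. Neuron and red blood cell markers were present in all libraries as well. In cKO E11.5, WT E11.5, cKO E13.5, cKO E15.5 and WT E15.5, library C lay close to a weighted sum of libraries A and B. Its median squared residual there was 0.579 to 0.928 of counting noise, against at least 2.55 in the other groups. Counts of called genes are therefore also given without these 5 libraries. Prdm16 was lower in cKO than in WT at E11.5 and E13.5 (log2 fold change -1.06 and -1.56, limma adjusted p = 8.06e-05 and 1.80e-06). It did not differ past the threshold at E15.5 (-0.18, adjusted p = 0.876). At E17.5 it was higher in the libraries labelled cKO (0.76, adjusted p = 0.000194), opposite to E11.5 and E13.5. Radial glia markers were also higher in those libraries, as given below. The cause of the higher Prdm16 values was not tested, and directions on that day refer to the labels only.

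The ribosomal protein mRNAs were most abundant at E11.5. Their share of all reads was 5.15%, 3.63% and 5.07% in cKO and 3.60%, 4.48% and 4.19% in WT libraries A, B and C at E11.5. At E13.5 it was 4.34%, 2.90% and 3.51% in cKO and 2.68%, 2.90% and 2.44% in WT. At E15.5 the shares were 2.37%, 2.67% and 2.38% in cKO and 2.33%, 2.41% and 2.37% in WT. At E17.5 they were 2.66%, 2.11% and 2.30% in the libraries labelled cKO and 2.25%, 2.15% and 1.79% in those labelled WT. The genotypes overlapped at E11.5, E15.5 and E17.5 and met at 2.90% at E13.5. The spread among the 3 cKO libraries of E11.5 or E13.5 was wider than the distance between the genotype means.

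**Figure D1:**
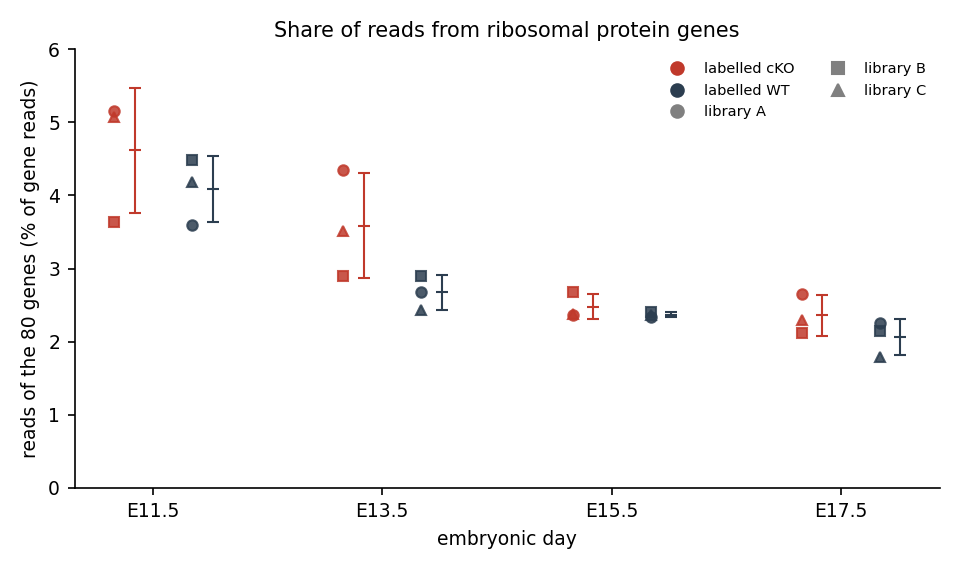
Reads of the 80 ribosomal protein genes as a percentage of all gene reads (y axis), by embryonic day, with cKO left of WT. Symbols mark libraries A, B and C, and bars give the mean ± SD (n = 3 libraries). WT libraries sat between 3.60% and 4.48% at E11.5 and between 1.79% and 2.25% at E17.5.

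Per kilobase of the longest annotated transcript, mean levels of the 80 genes ranged from 705 (Rps4l) to 31800 (Rps15) normalized reads, with a median of 9988. Rps15 and Rpl4 stood at the top of that order. The pseudogene Rps4l and the paralogs Rpl22l1 and Rpl36al stood at the bottom. The member nearest to the minimum of 100 was Rps4l, with a mean of 665 normalized reads. The order depends on the annotated lengths, which ran from 383 to 5179 bases. The 145 rows named as ribosomal protein pseudogenes held reads equal to 0.383% to 0.583% of those of the 80 genes. Processed copies and paralogs can share reads with the parent gene where the sequences are near identical, and the labels do not say how such reads were counted.

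Part of the genes also share a sequence at their start. Start-site sequences from RefSeq (GRCm38.p6) matched 59 of the 80 genes. A C within 5 bases of the annotated start, followed without a break by at least 7 C or T, was found in 21 of the 59 (35.6%), against 694 of 11825 (5.87%) other tested genes. In the window from 250 bases before to 50 bases after the start, the core of ETS-family sites, CCGGAAG on either strand, was found in 40.7% of the 59 genes and 17.5% of the others. The YY1 core AAGATGGC, searched likewise, was found in 8.47% and 4.58%. The windows below run from 10 bases before to 20 bases from the annotated start, 5′ to 3′ on the gene's strand, with the pyrimidine tract in capitals. The first 4 carry a tract, and Rps27l, Rps2 and Rpl7l1, which carry none near this start, are shown because the results below turn on them.
Rps27 (chr3:90213629-90213658, minus strand): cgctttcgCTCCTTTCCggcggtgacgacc
Rps6 (chr4:86857348-86857377, minus strand): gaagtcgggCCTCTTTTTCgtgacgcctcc
Rps15a (chr7:118116128-118116157, minus strand): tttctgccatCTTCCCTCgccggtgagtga
Rpl15 (chr14:18270967-18270996, minus strand): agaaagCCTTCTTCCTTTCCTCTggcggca
Rps27l (chr9:66946076-66946105, plus strand): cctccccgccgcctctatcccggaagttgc
Rps2 (chr17:24720053-24720082, plus strand): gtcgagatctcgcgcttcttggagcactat
Rpl7l1 (chr17:46782637-46782666, minus strand): gctgcgcaagcgcagtagctgaagcaccgg

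Annotated starts can lie some bases from the start used in the tissue, so no tract in this window says only that these letters are not there. Between WT E17.5 and WT E11.5 the median log2 fold change was -0.79 over the 21 genes with a tract and -0.78 over the 38 without. Between cKO and WT at E13.5 the medians were 0.32 and 0.40. Past the threshold, 6 of the 21 genes with a tract and 19 of the 38 without were higher in cKO. Of the 21 genes with no start sequence, 5 were higher (median 0.34), where 9.79% of all tested genes were higher. Whether the groups with and without a tract differ was not tested.

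In WT cortex, ribosomal protein mRNAs fell between E11.5 and E17.5. WT E17.5 was below WT E11.5 for 78 of the 80 genes and above it for none (limma, adjusted p under 0.05), where 36.4% of all tested genes were lower and 38.4% higher. The median log2 fold change was -0.78, against 0.02 over all genes. Without the 5 C libraries 69 genes were called, all of them among the 78 (background then 31.9% lower and 34.6% higher). Most of the fall lay between the first days. WT E13.5 was below WT E11.5 for 71 genes (background 25.7% lower and 29.6% higher, median -0.56). WT E15.5 was below WT E13.5 for 13 (background 22.8% lower and 24.2% higher, median -0.21). Between WT E17.5 and WT E15.5, 1 gene, Rps15a, was higher and none lower (background 17.6% higher and 14.6% lower, median 0.02). With edgeR's quasi-likelihood test that last comparison also gave 1 higher and no lower gene. Without the 5 C libraries the counts of these 3 steps were 42, 3 and 0. The background was then 16.6%, 16.6% and 6.82% lower, and 22.1%, 18% and 9.28% higher. At an unadjusted p under 0.05 the last step then had 1 gene. With only the groups compared in the limma fit the counts were 76, 38 and 6. Those fits called 9193, 8848 and 6718 genes among all those tested. In the libraries labelled cKO, all 80 genes were lower at E17.5 than at E11.5 (background 32.5% lower and 35.2% higher, median -0.90). Without the 5 C libraries 77 of them were lower (background 26.2% lower and 29.5% higher).

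The largest WT falls belonged to the paralogs Rps27l and Rpl22l1, to Rps2 and to the pseudogene Rps4l. Rps27l is the paralog of the 40S protein gene Rps27 and a p53 target. Its 3 libraries had 994, 944 and 756 normalized reads in WT at E17.5, against 2291, 3288 and 2882 in WT at E11.5. The groups did not overlap (log2 fold change -1.64, SE 0.17, limma adjusted p = 2.48e-08). Rps2 encodes a 40S protein near the mRNA entry channel. It had 14733, 13498 and 12475 normalized reads in WT at E17.5 and 31823, 41934 and 37252 in WT at E11.5, again without overlap (-1.44, adjusted p = 3.24e-07). Rpl22l1, a 60S protein paralog, had 1552, 1543 and 1412 in WT at E17.5 and 3379, 5090 and 4619 in WT at E11.5 (-1.52, adjusted p = 5.09e-09). Rps4l, the least abundant of the 80, fell as well (-1.41, adjusted p = 0.000456). Among members with other known roles, WT E17.5 was lower than WT E11.5 for Rps6, the S6 kinase substrate (-0.79), for Rpl5 and Rpl11, which with 5S rRNA bind MDM2 (-0.78 and -0.96), for Rps19, mutated in Diamond-Blackfan anaemia (-0.77), and for Rps27a, made as a ubiquitin fusion (-0.90). Rpsa, also known as the laminin receptor, fell by 0.87 on this scale. Each of these 6 passed the threshold.

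The smallest differences were those of Rps15a, Rpl23a, Rpl15 and Rps7. Rps15a had 13647, 13199 and 11578 normalized reads in WT at E17.5, against 11700, 16335 and 15027 in WT at E11.5. The groups overlapped (-0.15, adjusted p = 0.301). Its WT values at E15.5 were 10275, 9556 and 9597, all below those of WT E17.5 (0.38, adjusted p = 0.0333, and 0.158 without the 5 C libraries). Meningeal and epidermal markers were high in part of those WT E15.5 libraries, as given below. Their part in this call, and in the WT steps that use E15.5, was not tested. Rpl36, a 60S protein, was the other gene not called over the whole course (-0.65, adjusted p = 0.0617). Rpl15 and Rpl23a, a 60S protein at the exit tunnel, were lower by a log2 of -0.31 and -0.30, close to the threshold (adjusted p = 0.0220 and 0.0464).

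**Figure D2:**
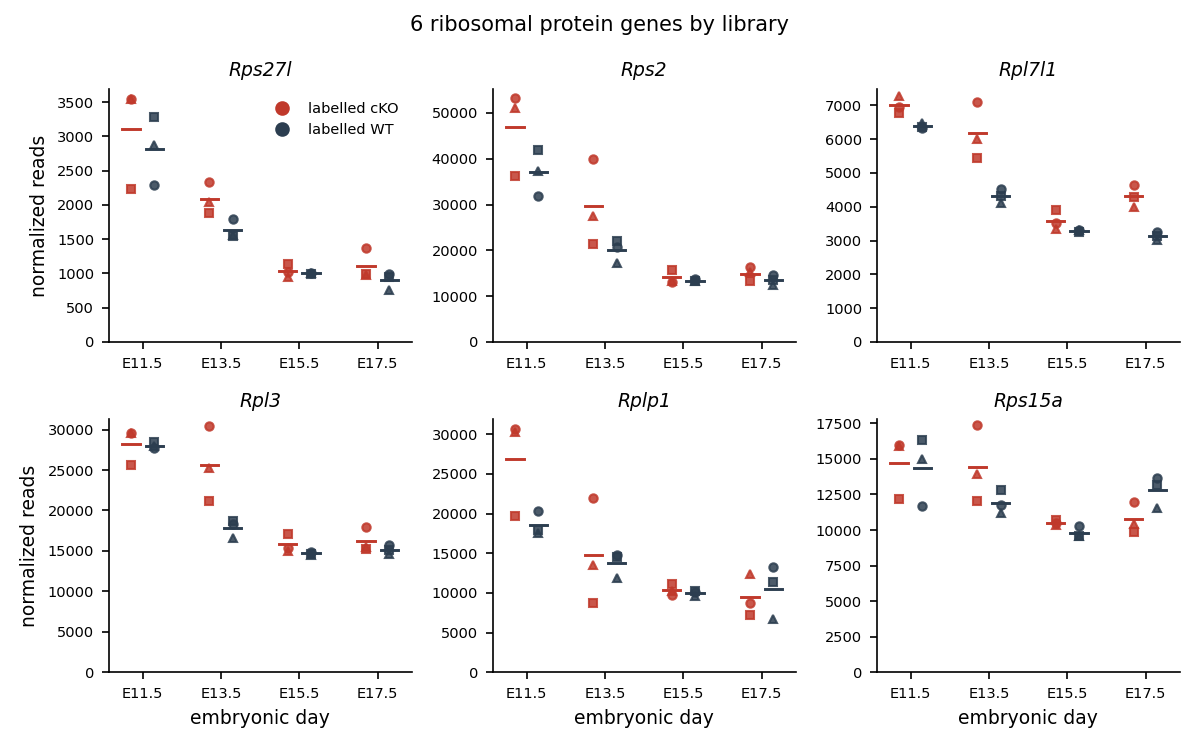
Normalized reads (y axis, from 0) of 6 of the genes in each library by embryonic day, with cKO left of WT. Circles, squares and triangles mark libraries A, B and C, and lines the mean of 3. Rps27l and Rps2 fell between E11.5 and E15.5, Rpl7l1 was higher in cKO at E13.5 and E17.5, and Rplp1 spread widely among cKO libraries at E13.5.

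The ratio of 60S to 40S reads, with the stalk genes counted as 60S, averaged 1.33 ± 0.0148 in cKO and 1.33 ± 0.0569 in WT at E11.5 (SD, n = 3 in each group). It was 1.34 ± 0.00965 in cKO and 1.33 ± 0.00639 in WT at E13.5, and 1.42 ± 0.00291 in cKO and 1.43 ± 0.00346 in WT at E15.5. At E17.5 it was 1.42 ± 0.00817 in the libraries labelled cKO and 1.404 ± 0.0239 in those labelled WT. In both genotypes every E15.5 library lay above every E13.5 library. Shares were also taken within 4 pairs of related genes, among them the pseudogene Rps4l with Rps4x. Rps27l made up 18.3% ± 0.555 of the reads of Rps27l and Rps27 in cKO and 17.8% ± 1.001 in WT at E11.5. At E13.5 it was 15.3% ± 1.51 in cKO and 14.99% ± 2.04 in WT, and at E15.5 10.4% ± 0.917 in cKO and 11.01% ± 0.187 in WT. At E17.5 it was 11.9% ± 0.963 in the libraries labelled cKO and 9.86% ± 1.18 in those labelled WT. Rpl36al, the autosomal partner of the X-linked Rpl36a, stayed between 23.5% and 27.8% of the pair in all 24 libraries. Rps4l made up 1.39% ± 0.340 of its pair with Rps4x in the libraries labelled cKO at E17.5 and 2.82% ± 0.0627 in cKO at E11.5, against 2.11% ± 0.559 in those labelled WT at E17.5 and 3.02% ± 0.535 in WT at E11.5. Rpl7l1 made up 14.3% ± 0.513 of its pair with Rpl7 in cKO and 14.2% ± 0.956 in WT at E13.5, and 13.5% ± 0.733 in the libraries labelled cKO and 10.5% ± 0.453 in those labelled WT at E17.5.

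Across the 24 libraries the genes moved almost as one. The Pearson correlation of each gene's log2 value with the mean of the other 79 had a median of 0.973 and exceeded 0.9 for 74 of the 80. It was lowest for Rpl36 (0.793) and highest for Rps15 (0.995). For deviations from the group means, that is, among libraries of the same genotype and day, the median was 0.949 and the lowest value was that of Rpl7l1 (0.742). These correlations describe libraries that share 1 normalization, and in 5 groups library C was close to a weighted sum of A and B. The genes are not independent of each other, and a count of called genes is not a count of separate differences.

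Other genes changed over the same days in WT, where 36.4% of all tested genes were lower and 38.4% higher. Fau, which encodes a 40S protein made as a fusion, and the 40S scaffold gene Gnb2l1, also known as Rack1, are not reached by the symbol rule, and both were lower in WT at E17.5 than at E11.5 (log2 fold change -0.75 and -0.70, limma adjusted p = 0.00431 and 0.000148). Of 40 genes for ribosome assembly, 36 were lower and none higher (median -0.65). Among them were Npm1, with 13390 ± 413 normalized reads in WT at E17.5 and 42180 ± 1590 in WT at E11.5 (SD, n = 3 each; log2 fold change -1.66), and Dkc1, the pseudouridine synthase of small nucleolar RNPs (-1.70). Of 15 translation factor genes known for TOP mRNAs, 10 were lower and 1 higher (median -0.55), with Eef1d at -1.34 and Pabpc1 at -0.91. Of 77 mitochondrial ribosomal protein genes, 61 were lower and 2 higher (median -0.66), and of 76 nuclear genes of the respiratory chain, 56 were lower and 2 higher (median -0.47). Of 13 MYC family and mTOR pathway genes, a list that mixes activators and inhibitors, 8 were higher and 1 lower (median 0.38). Myc, an activator of ribosomal protein transcription, had 906 ± 108 normalized reads in WT at E17.5 and 345 ± 9.82 in WT at E11.5 (1.38). The more abundant Mycn had 6545, 4900 and 4057 in WT at E17.5 and 6678.5, 3502 and 4501 in WT at E11.5, and these groups overlapped. The gene of the 13 that was lower was Eif4ebp1, which encodes a translation repressor controlled by mTOR (-3.20).

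Cell type and length markers moved over the same days. All 12 neuron markers were higher in WT at E17.5 than at E11.5 (median 3.01), and their summed level was 470500 to 513900 normalized reads in WT at E17.5 and 66960 to 81530 in WT at E11.5. Of 10 radial glia markers 6 were lower and 2 higher (median -1.93), and the sum was 46570 to 50670 in WT at E17.5 and 125700 to 129900 in WT at E11.5. All 12 cell division genes were lower (median -2.46). The red blood cell sum was 10640 to 22540 in WT at E17.5 and 210000 to 322800 in WT at E11.5. Of 6 meningeal markers 5 were lower (median -4.37), with a sum of 1375 to 2310 in WT at E17.5 and 20490 to 35440 in WT at E11.5, and of 6 endothelial markers 4 were lower (median -0.56). The 80 genes are short, with a median longest transcript of 1100 bases against 3458 over all 14659 protein-coding genes tested. Of 109 other abundant protein-coding genes with transcripts under 1000 bases, which also include globin and mitochondrial genes, 67 were lower and 14 higher (median -0.49). The part of cell composition or of transcript length in the fall of the ribosomal protein mRNAs was not tested. In such bulk samples, fewer cells of a type and less RNA per cell cannot be told apart.

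Between the genotypes, most calls fell at E13.5. On that day, 30 of the 80 genes were higher in cKO than in WT and none was lower (limma, adjusted p under 0.05), where 9.79% of all tested genes were higher and 12.5% lower. The log2 fold change was positive for 79 of the 80, with a median of 0.35 against -0.02 over all genes, and ran from 0.33 to 0.56 over the 30 genes called. In 25 of the 80 genes every cKO library lay above every WT library (background 17.1%). Of the 60S genes 20 of 45 were called, of the 40S genes 10 of 32 and of the stalk genes none of 3. edgeR's quasi-likelihood test called 34 genes, including all 30 (background then 12.4% higher and 11% lower).

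The calls at E13.5 rested on how the spread was estimated and on single libraries. Without the 5 C libraries the median was 0.37 and 1 gene, Rpl7l1, was called (33 at an unadjusted p under 0.05). Of all tested genes, 0.788% were then higher and 1.85% lower, so calls were lost across the whole table. With only the 6 libraries of E13.5 in the limma fit, none was called (smallest adjusted p 0.0551, and 31 at an unadjusted p under 0.05). That fit called 640 genes among all those tested. Without cKO library A 3 genes were called, without cKO C 12, without WT A 13 and without WT C 5, while without cKO B the count was 65. The share of all tested genes is not given for these fits. The counts therefore do not show whether calls changed for these genes only or across the whole table. Leaving out 1 library of the whole set at a time, the median stayed between 0.19 and 0.53.

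The genes furthest apart at E13.5 were Rpl36a, Rpl24 and Rps4x. Rpl36a had 8434, 5616 and 6751 normalized reads in cKO libraries A, B and C, against 4678, 5073 and 4223 in WT. The groups did not overlap, with library A of cKO highest (log2 fold change 0.56, SE 0.14, limma adjusted p = 0.00872, and 0.0739 without the 5 C libraries). Rpl24, mutated in Belly spot and tail mice, had 1995, 1393 and 1691 in cKO and 1129, 1275 and 1033 in WT (0.55, adjusted p = 0.0199, and 0.125 without the 5 C libraries). Rps4x had 41713, 28252 and 32965 in cKO and 22843, 26159 and 21386 in WT (0.53, adjusted p = 0.0134, and 0.0905 without the 5 C libraries). In both genes cKO A was the highest of the 6 libraries and cKO B the nearest to WT.

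Members with further known roles were among those called at E13.5. Rpl5 and Rpl11, the 5S RNP proteins, were higher in cKO by a log2 of 0.53 and 0.45. Rps6 (0.33), Rps27a (0.45), Rpsa (0.40) and Rpl22l1 (0.42) also passed the threshold. Rps19 (0.34, adjusted p = 0.0726), Rpl10, a late-joining 60S protein (0.37, 0.0906), and Rpl38, mutated in Tail-short mice (0.34, 0.124), did not pass it. Rpl13a, the subunit of an interferon-induced translation repressor complex, did not pass it either (0.25, adjusted p = 0.242). Rpl39, X-linked like Rpl10, Rpl36a and Rps4x, was at 0.40 (adjusted p = 0.121). Without the 5 C libraries Rpl5, Rpl11, Rps6, Rps27a, Rpsa and Rpl22l1 did not pass the threshold either (limma adjusted p 0.066 to 0.144).

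At the lower end stood Rpl36 and the acidic stalk genes. Rplp1 had 22030, 8708 and 13552 normalized reads in cKO and 14798, 14479 and 11944 in WT at E13.5. Library A of cKO was above and library B below every WT library (log2 fold change 0.01, adjusted p = 0.990). Rplp2 had 18197, 6468 and 9969.9 in cKO and 10637, 11383 and 8777 in WT, with cKO A again highest and cKO B lowest (0.05, adjusted p = 0.923). Rpl36 had 6507, 2519 and 3799.6 in cKO and 4780.0, 4601 and 3765 in WT (-0.14, adjusted p = 0.778). In all 3 genes, libraries A and B of cKO lay on either side of the WT libraries. At E11.5 the same 3 had the highest fold changes, with 0.51 for Rplp1, 0.48 for Rpl36 and 0.47 for Rplp2, none past the threshold (adjusted p 0.456 to 0.573).

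**Figure D3:**
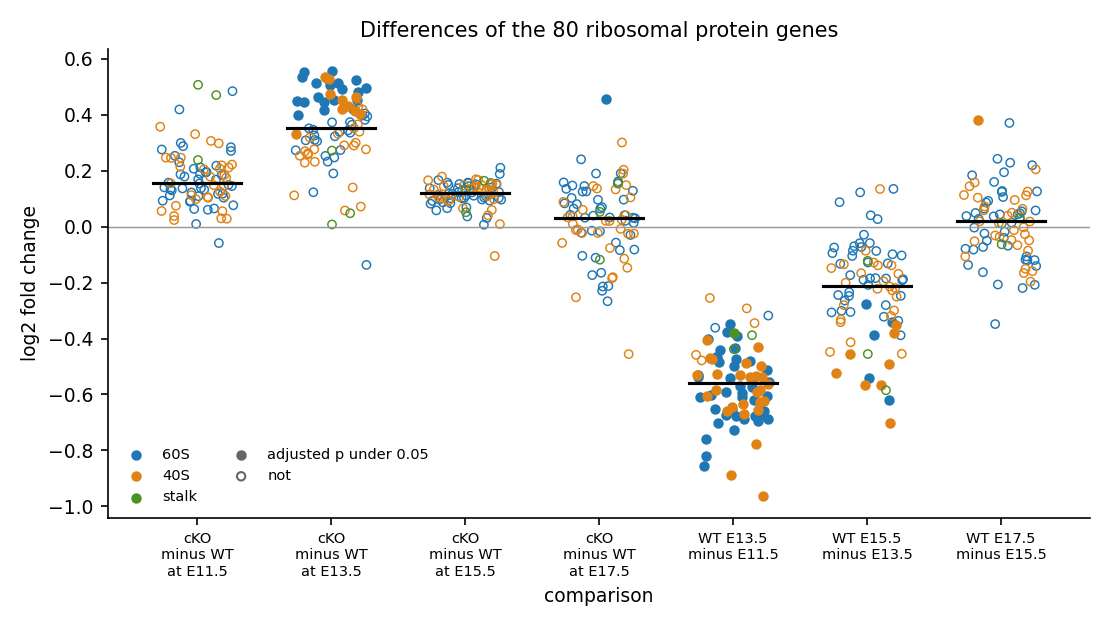
Log2 fold change (y axis) of each of the 80 genes in the 4 comparisons of cKO with WT and in the 3 steps of the WT course. Each point is 1 gene, coloured by subunit, filled where limma's adjusted p was under 0.05, and lines mark the median over the 80 genes. The points lie above 0 for 79 genes at E13.5 and below 0 for all 80 between WT E13.5 and WT E11.5.

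Other gene groups also differed at E13.5, where 9.79% of all tested genes were higher and 12.5% lower in cKO. In cKO, 23 of the 40 ribosome assembly genes were higher than in WT and none lower (median 0.31). Npm1 had 40020 ± 7784 normalized reads in cKO and 24980 ± 2441 in WT (SD, n = 3 each; log2 fold change 0.67), and Gnl3 (0.62) and Dkc1 (0.55) were also higher. Of the 15 translation factor genes 8 were higher and none lower (median 0.32), Eif3e, Eef1d and Naca among them (0.46, 0.48 and 0.48). The mitochondrial ribosome had 39 of 77 genes higher and none lower (median 0.36), and the nuclear respiratory chain genes 15 of 76 (median 0.28). Of 13 MYC family and mTOR pathway genes none was higher and 4 were lower (median -0.24). Mtor itself had 3271, 3831 and 3351 normalized reads in cKO and 5309, 5376 and 5253 in WT, without overlap (-0.61, adjusted p = 0.0173). Rptor, the scaffold of mTOR complex 1, and Tsc2, its inhibitor, were lower as well (-0.49 and -0.39).

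Markers of RNA and of tissue also differed at E13.5. The mitochondrial genome held 1.58% to 1.90% of reads in cKO and 0.967% to 1.10% in WT, and 7 of its 8 tested protein genes were higher in cKO (median 0.91). Of the 109 other short genes 30 were higher and 1 lower (median 0.31). The summed level of the 12 neuron markers was 76600 to 85310 normalized reads in cKO and 109300 to 171300 in WT, and 5 of the 12 were lower. The sum of 9 ventral forebrain markers was 50.3 to 470.2 in cKO and 806 to 4755 in WT, with 8 of 9 lower. The sum of 6 intermediate progenitor markers was 26850 to 29780 in cKO and 37510 to 40530 in WT. Of the 12 cell division genes 5 were higher and 1 lower in cKO (median 0.25), and their sum was 151500 to 169400 in cKO and 144400 to 173200 in WT. Of the 10 radial glia markers 3 were lower and none higher (median -0.02). The part of these differences in that of the ribosomal protein genes was not tested.

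**Figure D4:**
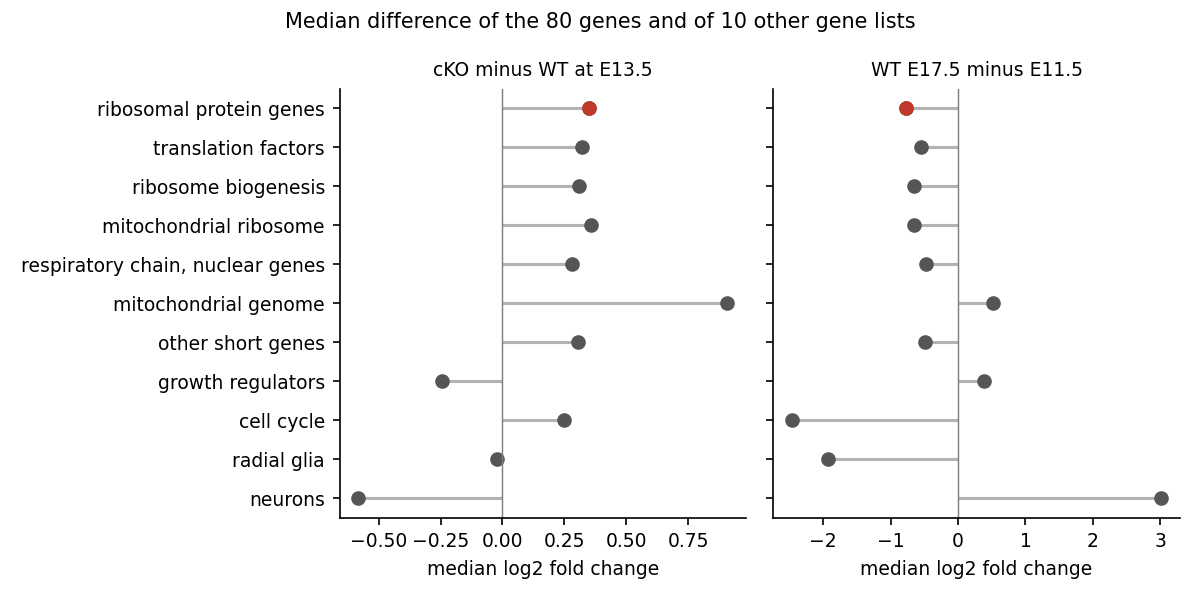
Median log2 fold change (x axis) of the 80 ribosomal protein genes, in red, and of 10 other gene lists, in grey, for cKO minus WT at E13.5 (left) and for WT E17.5 minus E11.5 (right, a wider scale). At E13.5 the ribosomal protein genes (0.35) lay beside the mitochondrial ribosome (0.36), ribosome biogenesis (0.31) and other short genes (0.31).

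On the other days at most 1 of the genes passed the threshold. At E11.5 none of the 80 genes was called by limma or by edgeR, and none had an unadjusted p under 0.05 in either (background 0.611% higher and 2.52% lower, median 0.16). With only the 6 libraries of E11.5 in the fit 3 genes had an unadjusted p under 0.05. At E15.5 again none was called by limma or edgeR, and none had an unadjusted p under 0.05 in either (background 0.833% higher and 1.68% lower, median 0.12). In 49 genes every cKO library lay above every WT library at E15.5 (background 12.5%), with log2 differences of -0.11 to 0.21 over the 80 genes. Library C of both groups was close to a weighted sum of A and B. With only A and B of each genotype, 56 genes did not overlap in this direction (background 17.7%). The fit to the 6 libraries of that day called none (29 at an unadjusted p under 0.05). Meningeal and epidermal markers were high in part of the WT libraries of E15.5. The sum of 6 meningeal markers was 582 to 1120 in cKO and 573 to 113100 in WT. The sum of 6 epidermal markers was 8.64 to 22.6 in cKO and 29.3 to 13170 in WT. The part of such tissue in the differences at E15.5 was not tested. At E17.5, 1 gene, Rpl7l1, was higher in the libraries labelled cKO and none was lower (background 18.6% higher and 21.8% lower, median 0.03). On that day radial glia markers summed to 142000 to 154300 normalized reads in the libraries labelled cKO and 46570 to 50670 in those labelled WT, and all 12 cell division genes were higher in those labelled cKO (median 1.17). Averaged over the 4 days, 26 genes were higher in the libraries labelled cKO and none lower (background 16.2% higher and 19.4% lower, median 0.17). With E17.5, where Prdm16 was higher in the libraries labelled cKO, left out of the average, 9 genes were higher and none lower (background 4.62% higher and 6.49% lower, median 0.21), 8 of them among the 26. In the average over all 4 days, 1 of the 26 remained without the 5 C libraries, Rpl7l1 (background 7.61% higher and 9.49% lower).

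Rpl7l1, a paralog of the 60S gene Rpl7, was called at both E13.5 and E17.5. It had 7106.5, 5443 and 6014 normalized reads in cKO and 4521, 4317 and 4098 in WT at E13.5, without overlap (log2 fold change 0.51, SE 0.08, limma adjusted p = 0.000641, and 0.0258 without the 5 C libraries). At E17.5 it had 4652, 4286 and 3989 in the libraries labelled cKO and 3241, 3149 and 3029 in those labelled WT, again without overlap (0.45, adjusted p = 0.000155). Without the 5 C libraries its adjusted p at E17.5 was 0.00185, although none of these is of that day, since the fit shares its spread over all groups. At E11.5 and E15.5 its differences were 0.13 and 0.12, neither past the threshold. Over the WT course it was lower at E17.5 than at E11.5 (-1.02, adjusted p = 5.89e-10).

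Whether the genotype difference itself varied between days was tested with a joint F test in the same limma fit. It passed the threshold for 2 of the 80 genes, Rpl7l1 (adjusted p = 0.0155) and Rpl3 (adjusted p = 0.0380), where 32.2% of all tested genes passed. Without the 5 C libraries neither passed it (adjusted p = 0.172 for Rpl7l1 and 0.224 for Rpl3). Rpl3, a 60S protein near the peptidyl transferase centre, had 30464, 21175 and 25202 normalized reads in cKO and 18295, 18661 and 16574 in WT at E13.5 (0.51, adjusted p = 0.00270, and 0.0539 without the 5 C libraries). Its differences were 0.01 at E11.5 and 0.10 at both E15.5 and E17.5. Rpl15 and Rpl36al followed, at adjusted p = 0.0527 and 0.105. The larger count of called genes at E13.5 than on the other days is thus not by itself a difference between days for the other 78 genes.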

How the data were processed

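The authors deposited 1 table of a normalized signal per gene and library: read counts divided by the library's size factor. The submitters' processing notes name DESeq 1.22.1, HTSeq 0.5.3, STAR 2.5.0a and cutadapt 1.6, with build mm10 (GRCm38). Neither the order of these tools, nor the strand setting, nor the handling of reads that match several genes is given there. All deposited values were whole multiples of 1 read (100% within 0.01), so reads could be recovered. The table holds 25639836 to 38879931 reads per library, which for these abundant genes leaves counting error small beside the spread between libraries.

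R 4.3.3 and limma 3.58.1 were used to test log2(value + 1), with a mean for each of the 8 groups, a trend in the prior variance and Benjamini-Hochberg adjustment over all 17518 genes with a value of at least 10 in 3 libraries. Tests were two-sided with a threshold of 0.05, and fold changes are differences of these log2 values. The fit was tested on simulated data. edgeR 4.0.16 on the recovered reads was an alternative, as were other pseudocounts, filters and normalizations, a replicate block, fits of only the groups compared and leaving out libraries. Transcript lengths are from GENCODE M21, which matched 99.5% of identifiers, and start sequences from RefSeq (GRCm38.p6). Sequences of the 2 members on chromosome 18 are not shown, and 1 matching gene is not reported here.

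The members and the gene lists were chosen with earlier results of these data known. Named members are those with the 3 highest and 3 lowest fold changes in each genotype comparison, the 4 highest and 4 lowest between WT E17.5 and E11.5, the 4 with the smallest p for a difference between days, and members with a paralog or a described role. Of each other list up to 3 genes with the smallest p were named, with Gnb2l1 and Fau from a list of further ribosome genes. Mycn was added beside Myc because of its higher level.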

Additional observations from a re-analysis of the deposited data

Results flagged for a closer look

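In 2 of the 80 genes the difference between cKO and WT varied between the 4 days by a joint F test in the limma fit. Of all tested genes 32.2% passed this test, so such a difference is not particular to these 2 genes. For Rpl7l1 (adjusted p = 0.0155) the log2 fold change was 0.13 on the first of the 4 days, 0.51 on the second, 0.12 on the third and 0.45 on the last. Over the alternatives tried its adjusted p ran from 0.00275 to 0.172, the highest without the 5 C libraries. For Rpl3 (adjusted p = 0.038) the fold changes on these days, in the same order, were 0.01, 0.51, 0.10 and 0.10, and the adjusted p ran from 0.00279 (without cKO E13.5 library B) to 0.224 (without the 5 C libraries). In the libraries labelled cKO at E17.5 the direction is that of the labels, since Prdm16 was higher there than in those labelled WT.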

How the results depend on the processing

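Of 394 counts of called genes under alternative settings, 331 were within 1.5 times the reported count. No named gene changed the sign of a called difference. The cause of the changes below was not tested beyond the construction of each setting. With only the groups compared in the fit, 0 genes were called for cKO against WT at E13.5, 38 for WT E15.5 against E13.5 and 6 for WT E17.5 against E15.5. Without the 5 C libraries the counts were 1 for cKO against WT at E13.5, 1 averaged over the days, 42, 3 and 0 for the 3 steps of the WT course, and 0 for the difference between days. Without WT E15.5 libraries B and C, which leaves that group with 1 library that is assumed to vary like the other groups, 4 genes were called averaged over the days, 3 for WT E15.5 against E13.5, 0 for WT E17.5 against E15.5 and 0 for the difference between days. With E17.5 left out of the average over the days, an alternative chosen after seeing the data, 9 genes were called. Without a trend in the prior variance, 1 was called for the difference between days. With a minimum size of 0.5 (log2, either direction) added to the threshold, the counts were 10 at E13.5, 0 at E17.5, 0 averaged over the days, 6 for WT E15.5 against E13.5 and 0 for WT E17.5 against E15.5.

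Leaving out 1 library at a time gave 3 to 65 calls for cKO against WT at E13.5, 10 to 53 averaged over the days, 46 to 72 for WT E13.5 against E11.5, 3 to 19 for WT E15.5 against E13.5, 0 to 2 for WT E17.5 against E15.5 and 1 to 12 for the difference between days. Over the whole WT course the range was 67 to 79. These ranges are likewise given without the share of all tested genes. Deviations of same-lettered cKO and WT libraries correlated at -0.43 to 0.11. With 3 libraries per group, this cannot decide whether the letters mark pairs. With the letter as a replicate block, 29 genes were called for cKO against WT at E13.5, 72 for WT E13.5 against E11.5, 77 for WT E17.5 against E11.5 and 3 for the difference between days. No count moved by over 1.5 times under the block. The median over the 80 genes for cKO against WT at E15.5 was 0.07 without cKO E15.5 library B. Of the named members, Rps7 and Rpl23a between WT E17.5 and E11.5 lost their call in 22 and 20 of 35 alternatives. Adjusted p for Rpl36a, Rpl24 and Rps4x at E13.5 reached 0.0867, 0.125 and 0.0961. Depth is not the limit for these abundant genes: with 3 libraries per group, the smallest difference called at E13.5 was a log2 of 0.33.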
